A study of Saccharomyces cerevisiae with 21 samples.

Results

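Hsp90 is an abundant cytosolic chaperone that works as a dimer and uses ATP to fold or activate a set of client proteins, among them protein kinases and transcription factors. Co-chaperones bind it in turn: some pass clients over from Hsp70, some set the speed of its ATPase, and some hold the closed, ATP-bound form. In budding yeast Hsp90 is encoded by a pair of near-identical genes, of which HSP82 is known as the heat-inducible one and HSC82 as the one made at a high level throughout. The genes described here are these 2 and 8 genes of co-chaperones: STI1, AHA1, HCH1, CPR6, CPR7, SBA1, CDC37 and CNS1. They were chosen by gene symbol, 1 probe set each, out of 5449 Saccharomyces cerevisiae genes measured, and all 10 were found on the array. None of the 10 overlaps another gene in the gene table of assembly R64.

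Transcript levels were measured on 21 Affymetrix yeast arrays in 7 groups of 3. In synthetic complete medium (SC), a defined medium, the groups were myristate with ISP1, myristate, and untreated control. In YPD, a rich medium based on glucose, they were heat stress with ISP1, heat stress, ISP1, and untreated control. Per the design text ISP1 is myriocin, a fungal compound that blocks serine palmitoyltransferase and with it the first step of sphingolipid synthesis. Myristate is a saturated fatty acid. Treatments lasted 45 min per the labels, except that no time is given for myristate with ISP1, where the descriptions of replicates 2 and 3 also carry another number after ISP than the titles used for grouping. The strain, the temperatures, the doses and any vehicle are not given in the labels, and the control arrays carry no treatment name beyond their medium. Nothing in the labels says that replicates were separate cultures, so p-values cover the spread between these arrays alone, and that spread may be a technical one.

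Levels are log2 signal, and each is compared only with the same gene on other arrays. Differences are on the log2 scale and carry the standard error of the limma fit (n = 3 arrays in each group), and a gene was called at an adjusted p (Benjamini-Hochberg over the 5449 genes) under 0.05. The median level of all genes lay between 10.21 and 10.33 on every array, replicates correlated with r from 0.993 to 0.998, and probe sets for another species, read as background, had a 95th percentile of 4.84. All members lay well above that. As a check of the labels, the inducible Hsp70 gene SSA4 averaged 14.95 ± 0.01 with heat and 10.28 ± 0.29 in the YPD control (SD, n = 3 each). The number of arrays limits the precision of every value.

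**Figure D1:**
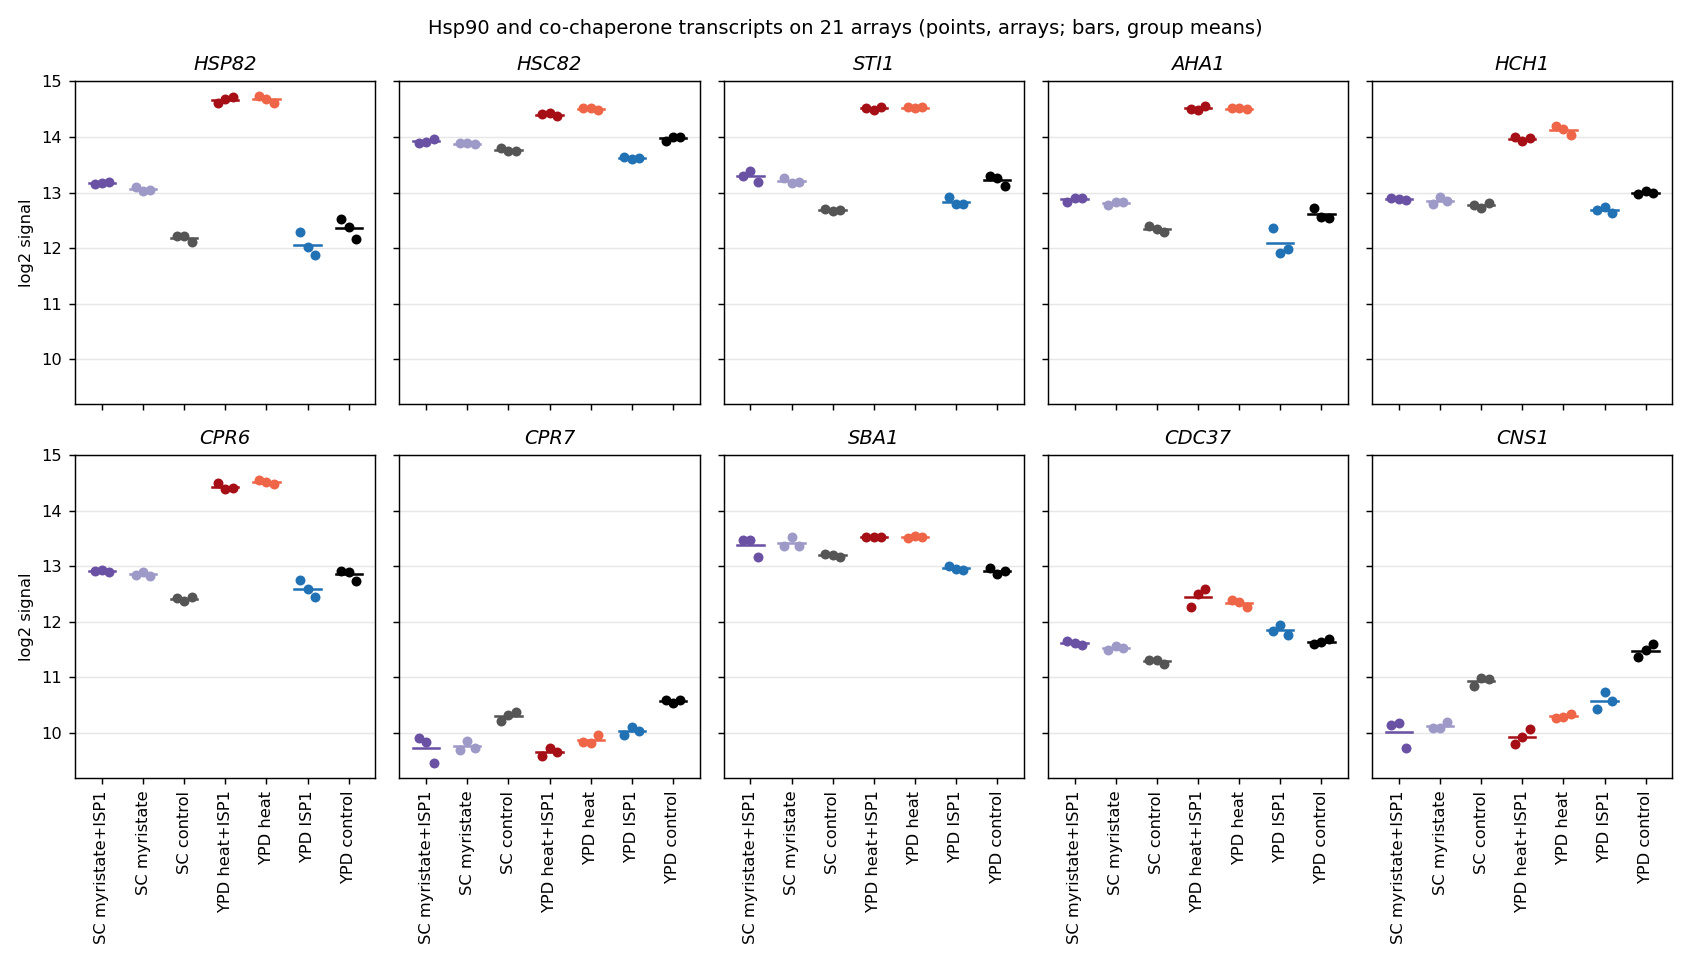
Log2 signal of each of the 10 genes (vertical axis) on all 21 arrays, by group (horizontal axis); points are arrays and bars are group means. The 6 heated arrays stand highest for all genes except CPR7 and CNS1, which are highest in the YPD control; for SBA1 the heated arrays overlap those with myristate.

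Heat raised the transcripts of both Hsp90 genes and of 6 co-chaperones, and lowered those of the other two. Heated against unheated YPD cells asked how this set responds to heat stress. Of the 10 members 8 rose and 2 fell, where 39.8% of all genes were called higher, 40.9% lower and 80.6% in either direction, so a call by itself says little about the members. Their median change was 0.91, against 0.00 for all genes (-0.0035 before rounding). For none of the 10 did heated and control arrays overlap, as for 83.1% of all genes.

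Of the Hsp90 genes, HSP82 (YPL240C) read 14.74, 14.69 and 14.62 on the heat arrays, against 12.52, 12.38 and 12.16 on the control arrays. Every heated array stood more than 2 log2 units above every control array. The rise was 2.33 ± 0.09, a 5.03-fold increase (adjusted p = 3.72e-14), and ranked 168th among the rises of all genes. HSC82 (YMR186W) read 14.53, 14.52 and 14.48 with heat, against 13.93, 13.99 and 14.001 in the control. Its arrays did not overlap either, but its rise was smaller, 0.54 ± 0.04 or 1.45-fold (adjusted p = 2.97e-10). The coding sequences of this pair are nearly alike, and how far each probe set also binds the other transcript was not tested.

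STI1 (YOR027W) encodes the adaptor that binds Hsp70 and Hsp90 at once and hands clients between them. It read 14.53, 14.52 and 14.54 with heat, against 13.30, 13.26 and 13.12 in the control, a rise of 1.31 ± 0.06 (2.47-fold, adjusted p = 1.28e-13). AHA1 (YDR214W) encodes the strongest known activator of the Hsp90 ATPase. It read 14.51, 14.52 and 14.50 with heat, against 12.72, 12.56 and 12.54 in the control, and rose by 1.90 ± 0.08, a 3.74-fold increase second only to HSP82 among the 10. HCH1 (YNL281W), whose product resembles the N-terminal part of Aha1, read 14.20, 14.14 and 14.04 with heat, against 12.98, 13.02 and 12.99 in the control. It rose by 1.13 ± 0.05, or 2.18-fold. In all of these genes the heated arrays lay clear of the controls.

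The genes of the cyclophilins that bind Hsp90, CPR6 and CPR7, went opposite ways. CPR6 (YLR216C) read 14.55, 14.51 and 14.48 with heat, against 12.91, 12.90 and 12.74 in the control, a rise of 1.66 ± 0.07 (3.16-fold, adjusted p = 5.03e-14). CPR7 (YJR032W) read 9.84, 9.81 and 9.96 with heat, against 10.59, 10.53 and 10.60 in the control, and changed by -0.70 ± 0.09 (adjusted p = 7.51e-07). Both encode peptidyl-prolyl isomerases with tetratricopeptide repeats, the domain that docks on the Hsp90 C-terminus.

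SBA1 (YKL117W) encodes the yeast p23 protein, which holds Hsp90 in its closed form, and CDC37 (YDR168W) encodes the co-chaperone that brings kinases to Hsp90. SBA1 read 13.51, 13.54 and 13.52 with heat, against 12.97, 12.85 and 12.92 in the control, and rose by 0.61 ± 0.07 (1.53-fold). CDC37 read 12.39, 12.36 and 12.27 with heat, against 11.60, 11.64 and 11.69 in the control, and rose by 0.70 ± 0.07 (1.62-fold). These rises were the smallest of the set beside that of HSC82. CNS1 (YBR155W), an essential gene for a tetratricopeptide repeat protein that binds both Hsp70 and Hsp90, read 10.26, 10.29 and 10.33 with heat, against 11.35, 11.48 and 11.60 in the control. It showed the steepest fall of the 10, at -1.19 ± 0.10 (adjusted p = 5.01e-09).

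With ISP1 present, heat moved the same 8 members up and the same 2 down. In heated cells with ISP1 against ISP1 alone, 40% of all genes were called higher, 37.2% lower and 77.2% in either direction, and no member's arrays overlapped (79.4% of all genes). HSP82 read 14.61, 14.69 and 14.72 in heat with ISP1, against 12.29, 12.02 and 11.87 with ISP1 alone, a rise of 2.62 ± 0.09 (6.13-fold, adjusted p = 2.98e-14, rank 43). AHA1 read 14.51, 14.49 and 14.55 in heat with ISP1, against 12.37, 11.91 and 11.99 with ISP1 alone, a rise of 2.43 ± 0.08 (5.38-fold, rank 53). Both genes thus reached about the level they had with heat alone. The Hsp70 adaptor, the cyclophilin and the Aha1 relative rose too, STI1 by 1.68 ± 0.06, CPR6 by 1.84 ± 0.07 and HCH1 by 1.28 ± 0.05. The rises of HSC82 (0.78 ± 0.04), CDC37 (0.60 ± 0.07) and SBA1 (0.56 ± 0.07) were again under 2-fold. CNS1 read 9.80, 9.92 and 10.06 in heat with ISP1, against 10.43, 10.73 and 10.58 with ISP1 alone (-0.65 ± 0.10), and CPR7 changed by -0.38 ± 0.09. Against the untreated control, heat with ISP1 gave 2.32 ± 0.09 for HSP82 and -1.55 ± 0.10 for CNS1, the extremes of the set, again with 8 members higher and 2 lower (41.8% and 40.5% of all genes, 82.3% in either direction) and no overlap between arrays for any of the 10 (84.5% of all genes).

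**Figure D2:**
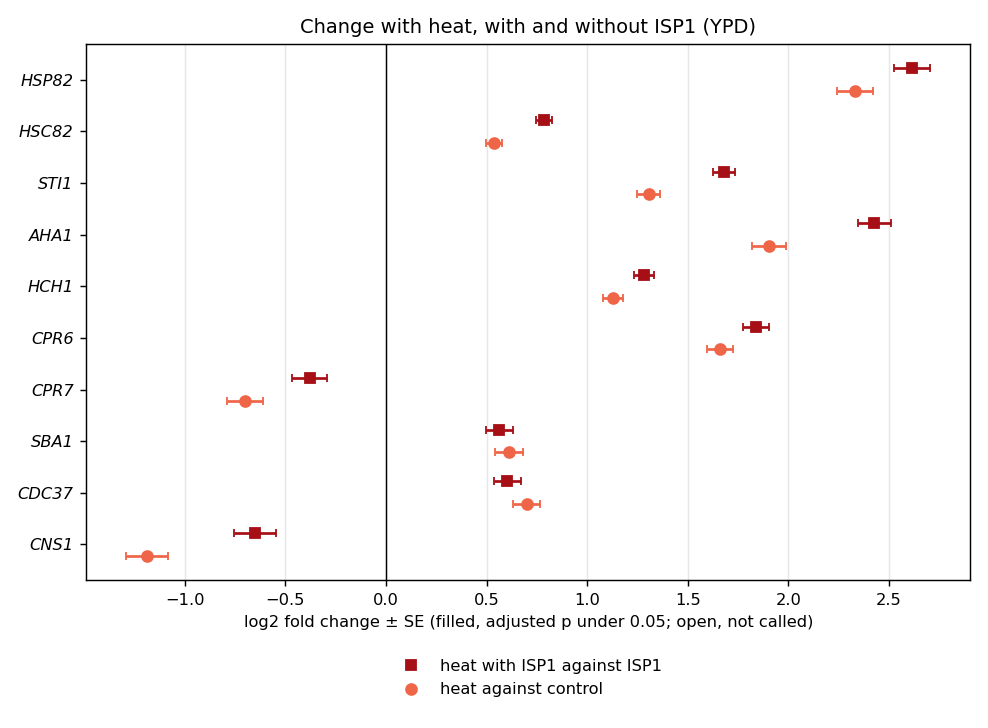
Log2 fold change ± SE (horizontal axis) of each gene with heat in YPD, with ISP1 present (squares, heat with ISP1 against ISP1) and without it (circles, heat against control); filled symbols passed the test. HSP82 and AHA1 lie farthest to the right and CNS1 and CPR7 to the left of 0 in both.

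Several heated levels were close to the top of the array. HSP82 lay 0.35 (log2) below the highest probe set of the heat arrays on average, and STI1, AHA1, CPR6 and HSC82 lay 0.51 to 0.53 below it, against 2.63, 1.76, 2.38, 2.14 and 1.01 below it for the same genes, in the same order, on the control arrays. CNS1 and CPR7 lay 4.75 and 5.17 below it with heat. The part that this nearness to the maximum plays in the size of the heat rises, or in the small ISP1 differences under heat given further on, was not tested. The 3' minus 5' signal of actin, a measure of RNA quality, also moved with heat. It was 0.51 ± 0.03 with heat and 0.38 ± 0.02 in the control (log2 ± SD, n = 3 each). For the control gene SRB4 it was 3.01 ± 0.18 with heat and 2.65 ± 0.11 in the control, and for SPT15 2.30 ± 0.03 and 2.00 ± 0.18. With ISP1 the signal of actin was 0.44 ± 0.01 in heated and 0.42 ± 0.05 in unheated cells. In the same order SRB4 was at 2.72 ± 0.09 and 2.70 ± 0.19, and SPT15 at 2.19 ± 0.11 and 2.03 ± 0.22. Heat arrays and heat with ISP1 arrays did not overlap for actin (0.48 to 0.55 against 0.42 to 0.45). Nor did they for SRB4 (2.90 to 3.22 against 2.67 to 2.83), while for SPT15 they overlapped. The part of RNA quality in the results was not tested.

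Related genes changed unequally with heat. The log2 difference between the pair on each array was compared between the 6 heated and 6 unheated YPD arrays by an exact two-sided permutation test within ISP1 state, where 0.005 is the smallest p the design allows, with adjustment over 6 such tests. HSP82 gained on HSC82 by 1.81 ± 0.09 (exact permutation p = 0.005, adjusted p = 0.01). Relative to its control mean, that difference ran from 1.83 to 1.96 on the heat with ISP1 arrays, from 1.76 to 1.83 on the heat arrays, from -0.12 to 0.28 on the ISP1 arrays and from -0.22 to 0.21 on the control arrays. CPR6 gained on CPR7 by 2.29 ± 0.08 and AHA1 on HCH1 by 0.96 ± 0.08 (exact permutation p = 0.005 and adjusted p = 0.01 for each). The gain of AHA1 was 1.15 with ISP1 present and 0.78 without it. HSC82 stood 1.01 below the array maximum in the control, so a smaller rise and a signal limited by that maximum cannot be told apart.

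**Figure D3:**
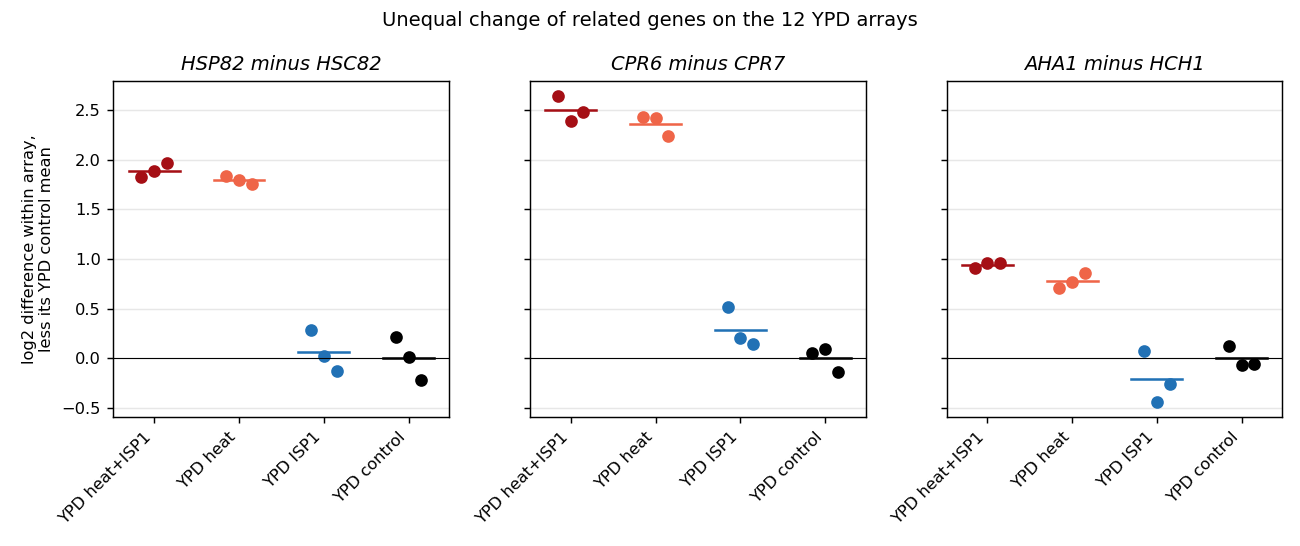
Log2 difference between 2 related genes on each of the 12 YPD arrays, less its mean on the control arrays (vertical axis), by group; points are arrays and bars are means. All heated arrays lie above all unheated ones for each pair.

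ISP1 without heat lowered both Hsp90 genes, HSP82 with a call that single arrays decided, and 6 co-chaperones. ISP1-treated against control cells in YPD asked how the set responds to ISP1 in unheated cells. Sphingolipid synthesis itself was not measured on these arrays. Of the members 8 fell and 1 rose, where 33.2% of all genes were called lower, 27.9% higher and 61.1% in either direction, and the median change was -0.33 against -0.04 for all genes. The changes were small, none as large as 2-fold. The arrays did not overlap for 7 of 10 members, as for 66.1% of all genes.

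CNS1 changed most, with 10.43, 10.73 and 10.58 on the ISP1 arrays, against 11.35, 11.48 and 11.60 on the control arrays, a difference of -0.90 ± 0.10 (adjusted p = 6.37e-07). CPR7 read 9.96, 10.10 and 10.03 with ISP1, against 10.59, 10.53 and 10.60 in the control, a difference of -0.54 ± 0.09. Both genes were lower with heat as well, against the same control arrays. AHA1 read 12.37, 11.91 and 11.99 with ISP1, against 12.72, 12.56 and 12.54 in the control (-0.52 ± 0.08, adjusted p = 2.9e-05). STI1 (-0.39 ± 0.06), HSC82 (-0.36 ± 0.04), HCH1 (-0.31 ± 0.05) and CPR6 (-0.26 ± 0.07) fell as well, CPR6 with overlapping arrays.

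HSP82 read 12.29, 12.02 and 11.87 with ISP1, against 12.52, 12.38 and 12.16 in the control. These arrays overlapped, and the difference of -0.30 ± 0.09 (adjusted p = 0.0085) lost its call without control array 1 (0.0612) or ISP1 array 3 (0.0669), and in the fit of the 6 compared arrays alone (0.0787). Same-numbered arrays of these groups deviated together, and with the replicate number as a block in that fit HSP82 was called (adjusted p = 0.00252). CDC37 was the member that rose: 11.83, 11.95 and 11.77 with ISP1, against 11.60, 11.64 and 11.69 in the control. Its rise of 0.21 ± 0.07 (adjusted p = 0.0129) lost its call without ISP1 array 2 (0.0749). SBA1 was at 0.05 ± 0.07 (adjusted p = 0.562, 95% interval -0.10 to 0.19).

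Among heated cells, ISP1 lowered 3 of the 10 genes, by 1.29-fold at most. In heat with ISP1 against heat, 3 of 10 members fell and none rose, against 16.3% lower, 16.5% higher and 32.7% in either direction among all genes. The median change was -0.05, and 4 members had arrays that did not overlap (45.4% of all genes). CNS1 read 9.80, 9.92 and 10.06 in heat with ISP1, against 10.26, 10.29 and 10.33 in heat, a difference of -0.37 ± 0.10 (adjusted p = 0.0121); its call was lost without heat with ISP1 array 1 (0.0559). HCH1 was at -0.16 ± 0.05 (adjusted p = 0.0214) and HSC82 at -0.11 ± 0.04 (adjusted p = 0.0431). In a fit of the 6 compared arrays alone, HCH1 (adjusted p = 0.105) and HSC82 (adjusted p = 0.145) were not called, and with the replicate number as a block in that fit, since same-numbered arrays deviated together, they were not either (adjusted p = 0.103 and 0.161) and 1 member, CNS1, was called. The call of HSC82 was also lost on leaving out any of the 6 arrays (0.0556 to 0.131), and that of HCH1 without heat array 1 (0.0954) or 2 (0.0662) or heat with ISP1 array 2 (0.0896).

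Of the 4 members that heat raised most, none was called here. HSP82 was at -0.01 ± 0.09 (95% interval -0.20 to 0.18), AHA1 at 0.01 ± 0.08 (-0.17 to 0.18), STI1 at -0.01 ± 0.06 (-0.13 to 0.10) and CPR6 at -0.08 ± 0.07 (-0.22 to 0.06), all read near the array maximum, whose part in these values was not tested. SBA1, farther below it, was at 0.00 ± 0.07 (-0.14 to 0.15). CPR7 read 9.59, 9.72 and 9.65 in heat with ISP1, against 9.84, 9.81 and 9.96 in heat; the arrays did not overlap, and -0.22 ± 0.09 missed the threshold (adjusted p = 0.067), but passed in the fit of the compared arrays alone (0.0484), with median centring (0.0262) and with array weights (0.000889). CDC37, at 0.11 ± 0.07 (adjusted p = 0.226), passed without heat with ISP1 array 1 (0.0184) and with array weights (0.000386).

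The change with heat differed between cells with and without ISP1 for 5 members, by the interaction test. The difference was positive in all 5, where 21.8% of all genes had a positive and 19.1% a negative interaction. It was 0.53 ± 0.15 for CNS1 (adjusted p = 0.00756), 0.52 ± 0.12 for AHA1 (adjusted p = 0.00163), 0.38 ± 0.08 for STI1 (adjusted p = 0.000885) and 0.25 ± 0.05 for HSC82 (adjusted p = 0.00149). For AHA1, STI1 and HSC82 heat raised the level more with ISP1 present, from the lower starting level. For CNS1 heat lowered the level less. AHA1, STI1 and HSC82 were near the array maximum in both heated groups, 0.51 to 0.53 (log2) below it with heat and 0.52 to 0.64 in heat with ISP1. The part of that nearness in their interaction was not tested. CPR7 was at 0.32 ± 0.13 (adjusted p = 0.0487), a call lost on leaving out any of 9 of the 12 arrays (0.0409 to 0.108 over all). HSP82, at 0.29 ± 0.13, missed the threshold (adjusted p = 0.0819) and passed without control array 3 (0.0188) or ISP1 array 1 (0.00735). CPR6 (0.18 ± 0.09) passed without ISP1 array 1 (0.0189) and HCH1 (0.15 ± 0.07) without heat array 1 (0.0417).

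**Figure D4:**
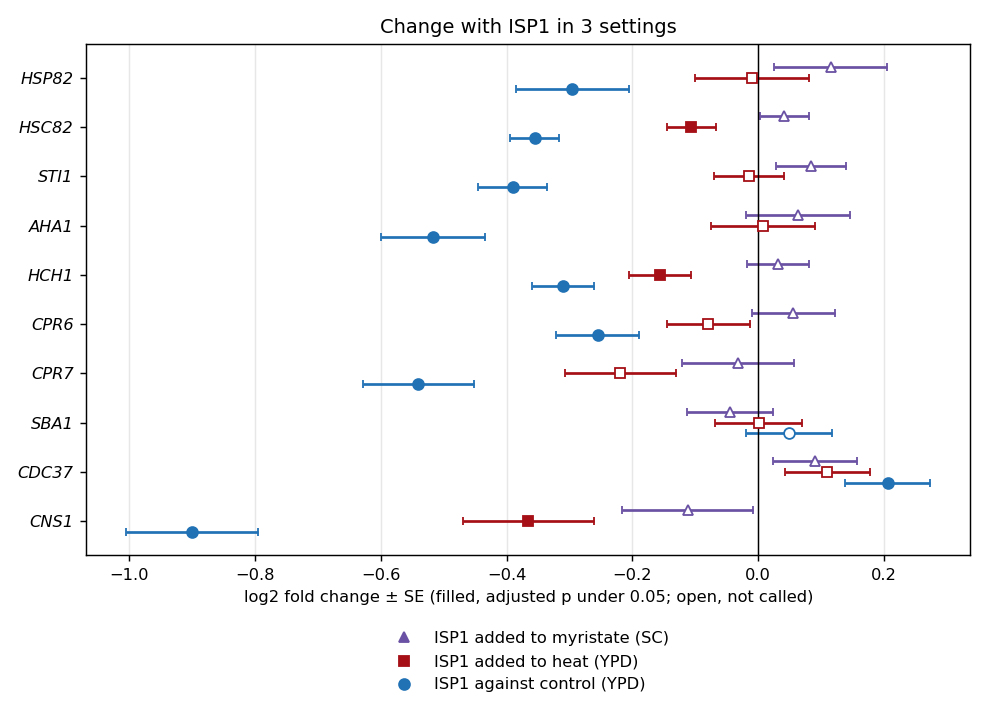
Log2 fold change ± SE (horizontal axis) of each gene on adding ISP1 to myristate in SC (triangles), to heat in YPD (squares) and to untreated YPD cells (circles); filled symbols passed the test. Of the circles 8 lie left of 0 and are filled, and no triangle is filled.

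Other genes, many of them for chaperones, were set beside these members. Their counts stand against the same background as above. With heat 39.8% of all genes were called higher and 40.9% lower, and under ISP1 27.9% higher and 33.2% lower. Of the Hsp70 system that hands clients to Hsp90, 9 of 10 genes rose with heat and 1 fell. SSA4 (4.67 ± 0.14), SSA3 (4.12 ± 0.10) and SSE2, an Hsp110 gene (4.11 ± 0.10), led, FES1, a nucleotide exchange factor gene, rose by 2.00 ± 0.08, and SNL1, named here after its value was seen, was the 1 that fell. Under ISP1 2 of these rose, SSE2 (0.97 ± 0.10) and SSA4 (0.65 ± 0.14), and 5 fell, and the falls included those of the Hsp40 gene YDJ1 (-0.75 ± 0.05) and of FES1 (-0.58 ± 0.08). Of 10 other genes under the heat shock factor Hsf1, most of them chaperone genes, all rose with heat. BTN2 was at 3.78 ± 0.14 and HSP42 at 3.66 ± 0.12. Under ISP1 3 rose and 2 fell, and which factors moved them was not tested. HSP42 (1.44 ± 0.12), HSP78 (1.18 ± 0.07) and the disaggregase gene HSP104 (0.59 ± 0.07) were the 3 that rose, and CUR1 (-0.75 ± 0.13) and MBF1 (-0.22 ± 0.07), the second of these named after its value was seen, were those that fell.

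The general stress genes under Msn2 and Msn4 rose in both conditions, 10 of 10 with heat (median 3.21) and 10 of 10 under ISP1 (median 2.12). CTT1, the cytosolic catalase gene, rose by 4.85 ± 0.10 with heat and 3.17 ± 0.10 under ISP1. The 10 Hsp90 and co-chaperone genes had a median of 0.91 with heat and -0.33 under ISP1, where CDC37 was the 1 member that rose. In the interaction test all 10 general stress genes were called negative (median -1.92), and 5 members positive and 0 negative. Among all genes 21.8% were positive and 19.1% negative. The Hsp70 system had 4 positive and 2 negative, and Hsp90 partners outside the set 4 and 1. The other genes under Hsf1 had 0 and 3. CTT1 averaged 12.65 with ISP1, 14.33 with heat and 14.46 with both. The part of the array maximum in these values was not tested.

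Of 10 Hsp90 partners outside the set, 3 rose and 7 fell with heat, with a median of -0.42. PPT1, the phosphatase that acts on Hsp90, changed by -2.64 ± 0.12 with heat and -1.13 ± 0.12 under ISP1. TTI1 (-1.46 ± 0.10) and TAH1 (-0.94 ± 0.07) fell with heat too, and SHE4, a chaperone gene for myosin, rose by 1.15 ± 0.07 with heat and 0.58 ± 0.07 under ISP1. Of 8 genes of described Hsp90 clients, 5 rose with heat, 2 fell and 1 was not called. SLT2, the cell wall integrity kinase gene, rose by 2.14 ± 0.08, HSF1 by 0.92 ± 0.06 and STE11 by 0.86 ± 0.06, and SWE1 changed by -1.25 ± 0.08. Of 6 other cyclophilin genes, 5 rose with heat by at most 0.58, and CPR8 fell, so CPR6 exceeded every other cyclophilin gene listed in the size of its rise.

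Myristate raised most of the set in SC cells, by less than 2-fold. Of the members 7 rose and 2 fell with myristate against the SC control, where 26.6% of all genes were called higher, 25.7% lower and 52.3% in either direction. The median was 0.23 against -0.01 for all genes, and 9 of 10 members had arrays that did not overlap (62.7% of all genes). HSP82 read 13.09, 13.03 and 13.05 with myristate, against 12.22, 12.22 and 12.12 in the SC control, a rise of 0.87 ± 0.09 (1.83-fold, adjusted p = 3.17e-07). STI1 read 13.26, 13.17 and 13.19 with myristate, against 12.71, 12.67 and 12.68 in the SC control (0.52 ± 0.06, adjusted p = 4.37e-07). AHA1 rose by 0.47 ± 0.08 and CPR6 by 0.44 ± 0.07. These 4 genes, which rose most with myristate, were also the 4 with the largest rises under heat.

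CDC37 (0.24 ± 0.07), SBA1 (0.22 ± 0.07) and HSC82 (0.12 ± 0.04) rose by less with myristate. HSC82 lost its call without SC control array 2 (0.0533) or 3 (0.0504), and SBA1 without myristate array 2 (0.0779). HCH1 was at 0.08 ± 0.05 (adjusted p = 0.17). CNS1 read 10.08, 10.09 and 10.19 with myristate, against 10.84, 10.98 and 10.96 in the SC control, a change of -0.81 ± 0.10 (adjusted p = 4.1e-06), and CPR7 changed by -0.54 ± 0.09. CNS1 and CPR7 were thus lower in each of heat, ISP1 and myristate than in the control of the same medium.

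ISP1 added to myristate gave no call in the set. In myristate with ISP1 against myristate, 0 of 10 members were called by limma and 0 had an unadjusted p under 0.05, and 0.0184% of all genes, the single gene VHR1, were called (349 genes had an unadjusted p under 0.05). Arrays of 3 members, HSP82, HSC82 and CDC37, did not overlap (13% of all genes). HSP82 was at 0.12 ± 0.09 (95% interval -0.07 to 0.31), HSC82 at 0.04 ± 0.04 (-0.04 to 0.12), AHA1 at 0.06 ± 0.08 (-0.11 to 0.24) and CNS1 at -0.11 ± 0.10 (-0.33 to 0.11). On myristate with ISP1 array 3, CNS1 (9.72, against 10.14 and 10.17 on the other two), CPR7 (9.45, against 9.90 and 9.84) and SBA1 (13.17, against 13.47 and 13.48) read low. The ISP1 change under myristate was more positive than the ISP1 change in untreated YPD cells for 8 members, in a contrast added after seeing the data (25.8% of all genes more positive, 20.1% more negative, 45.9% either). That contrast was 0.79 ± 0.15 for CNS1, 0.58 ± 0.12 for AHA1 and 0.40 ± 0.05 for HSC82; medium and myristate both differ between its sides and cannot be told apart.

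Myristate with ISP1 against the SC control gave 7 rises and 2 falls (30.2% and 26.7% of all genes, 56.9% in either direction), and the arrays of 9 members did not overlap (62% of all genes). HSP82 rose by 0.99 ± 0.09, STI1 by 0.60 ± 0.06, AHA1 by 0.53 ± 0.08 and CPR6 by 0.50 ± 0.07, and CNS1 changed by -0.92 ± 0.10 and CPR7 by -0.57 ± 0.09. SBA1, at 0.18 ± 0.07 (adjusted p = 0.0375), kept its call on leaving out 1 array alone, the low myristate with ISP1 array 3 (0.000321), and lost it without any of the other 5 (up to 0.175). HCH1 was at 0.12 ± 0.05 (adjusted p = 0.0539).

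The SC and YPD controls differed in most of the set as well. In the SC control against the YPD control 8 members were lower and 1, SBA1, was higher, where 40.9% of all genes were called lower, 18.9% higher and 59.8% in either direction, and the median of all genes was itself at -0.13. The arrays did not overlap for 9 members (67.8% of all genes). The 3' minus 5' signal of actin differed between the media too, at 0.13 ± 0.01 in SC and 0.38 ± 0.02 in YPD (log2 ± SD, n = 3 each). That of SRB4 was 1.85 ± 0.10 in SC and 2.65 ± 0.11 in YPD. For SPT15 it was alike, at 2.01 ± 0.11 in SC and 2.00 ± 0.18 in YPD. The part of RNA quality in this comparison and in the contrast across media was not tested. CNS1 read 10.84, 10.98 and 10.96 in SC, against 11.35, 11.48 and 11.60 in YPD (-0.55 ± 0.10). STI1 was lower by a like amount, with 12.71, 12.67 and 12.68 in SC, against 13.30, 13.26 and 13.12 in YPD (-0.54 ± 0.06), and CPR6 followed at -0.44 ± 0.07. SBA1 read 13.22, 13.20 and 13.17 in SC, against 12.97, 12.85 and 12.92 in YPD, a difference of 0.28 ± 0.07 (adjusted p = 0.00184). HSP82 was at -0.17 ± 0.09 (adjusted p = 0.111), close to the median of all genes, and passed without YPD control array 3 (0.0185). AHA1 lost its call without YPD control array 1 (0.0562) and CPR7 without SC control array 1 (0.0608). The general stress genes were higher in SC, 10 of 10 with a median of 2.39, and any growth phase or density behind such a difference is not given in the labels.

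**Figure D5:**
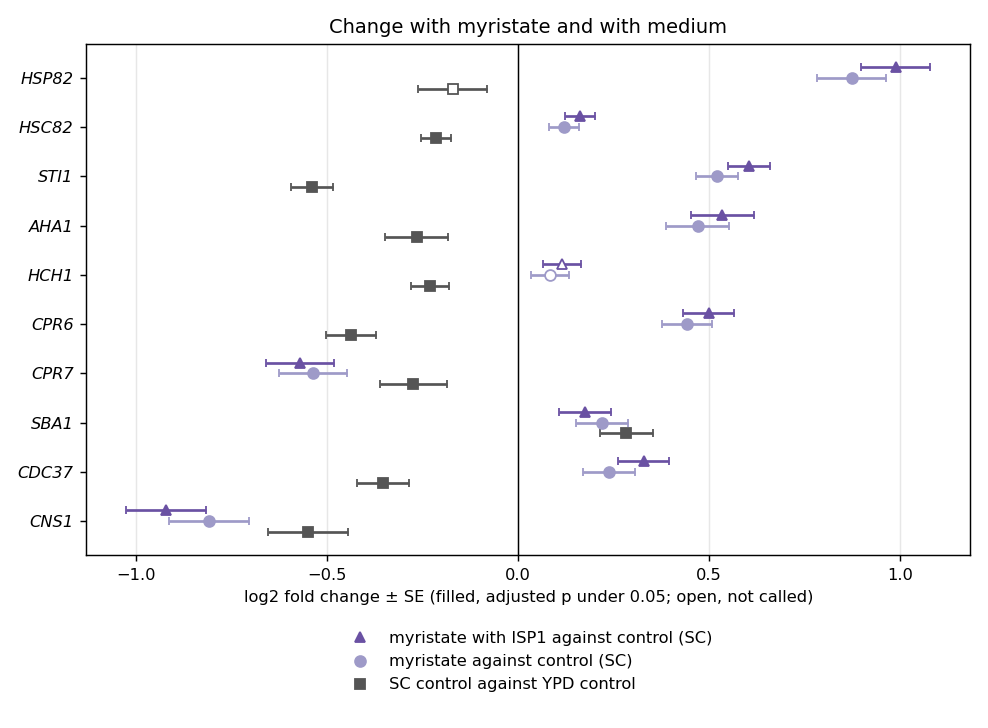
Log2 fold change ± SE (horizontal axis) of each gene for myristate with ISP1 (triangles) and myristate (circles) against the SC control, and for the SC control against the YPD control (squares); filled symbols passed the test. HSP82 reaches 0.87 and 0.99 with myristate, and CNS1 lies left of 0 in all 3.

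Over the 7 groups HSP82 had the widest range of group means, 2.62, and SBA1 the narrowest, 0.61. For HSP82 the order from high to low was heat (14.68), heat with ISP1 (14.68), myristate with ISP1 (13.17), myristate (13.06), YPD control (12.36), SC control (12.18) and ISP1 (12.06). In it the 2 heated groups overlapped, as did neighbours among the last 3. For HSC82 it was heat (14.51), heat with ISP1 (14.40), YPD control (13.98), myristate with ISP1 (13.92), myristate (13.88), SC control (13.76) and ISP1 (13.62), and the YPD control and myristate with ISP1 alone overlapped as neighbours. For CNS1 the order was YPD control (11.48), SC control (10.93), ISP1 (10.58), heat (10.29), myristate (10.12), myristate with ISP1 (10.01) and heat with ISP1 (9.93), and neighbours overlapped among the last 3. CPR7 had the same order: YPD control (10.57), SC control (10.30), ISP1 (10.03), heat (9.87), myristate (9.76), myristate with ISP1 (9.73) and heat with ISP1 (9.65), with overlap between neighbours among the last 4.

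The co-chaperone genes raised by heat differed in what came after the heated groups. For STI1 the order was heat (14.53), heat with ISP1 (14.52), myristate with ISP1 (13.29), YPD control (13.23), myristate (13.21), ISP1 (12.84) and SC control (12.69), and neighbours overlapped between the heated groups and among the 3 groups after them. AHA1 had heat with ISP1 (14.52), heat (14.51), myristate with ISP1 (12.88), myristate (12.81), YPD control (12.61), SC control (12.34) and ISP1 (12.09), with overlap between the heated groups, between the myristate groups and between the last 2. CPR6 had heat (14.51), heat with ISP1 (14.43), myristate with ISP1 (12.91), myristate (12.86), YPD control (12.85), ISP1 (12.59) and SC control (12.41), with overlap between the heated groups and among the 4 groups after them. So the lowest group was ISP1 for AHA1, as for both Hsp90 genes and HCH1, and the SC control for STI1, CPR6 and CDC37.

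HCH1 had its YPD control (12.998) directly below heat (14.12) and heat with ISP1 (13.97), and above myristate with ISP1 (12.88), myristate (12.85), SC control (12.77) and ISP1 (12.69), the last 4 overlapping as neighbours. CDC37 had ISP1 (11.85) directly after heat with ISP1 (12.45) and heat (12.34), which overlapped. Below ISP1 came the YPD control (11.64), myristate with ISP1 (11.62), myristate (11.52) and SC control (11.29). Of these the YPD control and myristate with ISP1 overlapped. SBA1 ran from heat with ISP1 (13.53) and heat (13.52) over myristate (13.42), myristate with ISP1 (13.37) and SC control (13.20) to ISP1 (12.96) and YPD control (12.91). Its first 5 groups overlapped as neighbours, and ISP1 and the YPD control overlapped too. It was the member with its lowest mean in the YPD control.

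Across these 7 group means, which share arrays, media and the array maximum, STI1 and CPR6 followed each other with r = 0.995 and CPR7 and CNS1 with r = 0.998, while HSP82 and CNS1 had r = -0.65 and HSP82 and HSC82 0.95. Such values describe the 7 groups only, since many genes reach them. Among 2397 genes outside the set with a range of at least 1, the nearest to HSP82 were RPN11 (0.994), a proteasome gene, SGT2 (0.988) and DOA4 (0.985). Nearest to STI1 were MBF1 (0.996) and SIS1 (0.994), to AHA1 MBF1 (0.993), to CPR6 BET4 (0.999) and MDJ1 (0.998), and to HCH1 APA1 (0.999) and FES1 (0.998). HSC82 was nearest to RAD54 (0.985) and KAR2 (0.983), the Hsp70 gene of the endoplasmic reticulum. Nearest to CNS1 were FCF2 (0.995) and NUD1 (0.992), and to CPR7 RCM1 (0.992); LCP5 was among the nearest 3 of both (0.992 for CNS1 and 0.991 for CPR7). SBA1 was nearest to FAA1 (0.994) and CDC37 to NNK1 (0.998).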

How the data were processed

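Per the labels, RNA of Saccharomyces cerevisiae was prepared by phenol extraction, biotin was the label, and the array protocol was Affymetrix's standard one. The authors deposited log2 signal per probe set for 21 arrays; the only steps that the submitters' processing notes name are affy and RMA, unversioned. RMA includes quantile normalization, so a shift common to most genes is lost. Of 10928 probe sets, 5498 carried 1 S. cerevisiae gene; the probe set with the highest mean was kept for each of 5449 genes, and each member had a single one. A further 1746 with 1 gene of another species gave the background.

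R 4.3.3 and limma 3.58.1 (lmFit, eBayes) fitted every contrast in a single group-means model of the 21 arrays. An exact test of 3 arrays against 3 cannot pass 0.05, so single genes had no permutation test. The fit was also run on simulated data with independent normal noise on each array. That simulation held neither the shared departures of same-numbered arrays given next nor an array maximum, so it does not test their part. Arrays of equal number departed from their group means alike (each correlation above 0.1) in 4 comparisons: ISP1 and control (0.230 to 0.530), heat with ISP1 and heat (0.172 to 0.433), heat with ISP1 and ISP1 (0.132 to 0.350), and myristate and control (0.322 to 0.626); the numbers come from the titles. Named genes are the 10 members, the 3 nearest by group means to each, of which the text prints the closest, up to 4 of each list with the largest change, and SSA4 and CTT1. Members and lists were chosen with earlier results of these data known. Sequences of the genes were not used here. Results were recomputed from the compared arrays alone, with the replicate number as a block, without dim genes, after quantile normalization or median centring, with an intensity trend or array weights, with probe sets averaged per gene, with a 2-fold minimum, and without each array in turn.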

Additional observations from a re-analysis of the deposited data

Results flagged for a closer look

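The change with heat differed between cells with and without ISP1 by the interaction test for CNS1 (0.5349), AHA1 (0.5234), STI1 (0.3759), CPR7 (0.3213) and HSC82 (0.2487), given as the log2 heat change with ISP1 minus that without it. AHA1, STI1 and HSC82 lay 0.51 to 0.53 below the array maximum on the heat arrays, and CNS1 and CPR7 4.75 and 5.17 below it. The part of the maximum in these differences was not tested.

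The ISP1 change under myristate in SC minus the ISP1 change in untreated YPD cells differed from 0 for CNS1 (0.7883), AHA1 (0.58), CPR7 (0.5081), STI1 (0.474), HSP82 (0.4109), HSC82 (0.3972), HCH1 (0.3417) and CPR6 (0.3115), in the contrast added after seeing the data. The labels give no time for myristate with ISP1, and how that bears on these values was not tested.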

How the results depend on the processing

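A 2-fold minimum left 6 members called for heat, 5 for heat with ISP1 against ISP1, 5 against control, and 0 for every other comparison; by construction it also cut the calls over all genes, to 1488 of 4394 for heat, 454 of 3331 for ISP1, 78 of 1784 for heat with ISP1 against heat, 1105 of 4206 against ISP1, 1691 of 4486 against control, 271 of 2231 for the interaction, 238 of 2849 for myristate, 304 of 3102 for myristate with ISP1 against control, 333 of 3258 for the medium and 394 of 2501 for the added contrast. For heat with ISP1 against heat, 3 members became 2 with the compared arrays alone, 1 with the replicate block added to that fit, and 5 (2960 genes) with array weights, and 1 to 2 with an array left out. Array weights gave 8 members in the interaction, and 43 genes for ISP1 added to myristate, where quantile normalization gave 3, median centring 2 and leaving out 1 array up to 2. CPR6 minus CPR7 under ISP1 was 0.21 (exact permutation p = 0.015, adjusted p = 0.0225). In exact permutation tests it did not pass in the replicate block by sign flips (0.2126, p = 0.0625) or without control array 3 (p = 0.055). Without strata it did not pass either (0.2126, exact permutation p = 0.574). That setting cannot decide, since it mixes heated and unheated arrays, between which CPR6 minus CPR7 changed by 2.29. The ISP1 value ran from 0.1549 to 0.2493 with an array left out. AHA1 minus HCH1 under ISP1, -0.02 (adjusted p = 0.845), ran from -0.0914 to 0.0357, and HSP82 minus HSC82 was 0.08 (adjusted p = 0.45). Signs turned only for values that were not called. For heat with ISP1 against heat these were STI1 (0.0017 with quantile normalization), AHA1 (-0.012 with median centring), SBA1 (-0.0182 with median centring) and HSP82 (0.0632 with array weights), and with an array left out AHA1 (-0.0101 to 0.022), HSP82 (-0.0421 to 0.0223) and SBA1 (-0.0064 to 0.009). In the interaction they were SBA1 (0.0068, quantile) and CDC37 (0.0071, weights). For ISP1 added to myristate they were CPR7 (0.0959, weights; -0.1169 to 0.1065 with an array left out), SBA1 (0.0435, weights; -0.0961 to 0.0584) and CNS1 (-0.1913 to 0.0337), and in the added contrast SBA1 (-0.145 to 0.0095). For myristate with ISP1 against control, departures of same-numbered arrays correlated at -0.09, 0.19 and 0.02, and the labels do not say whether numbers mark pairs. There SBA1 lost its call with the compared arrays alone (adjusted p = 0.15). With the replicate block added to that fit SBA1 (0.123) and HSC82 (0.0736) were not called. The block fits changed no other call of a single gene beyond those given for heat with ISP1 against heat. What moved these values was not tested. Of the members, HSP82, HSC82, STI1, AHA1 and CPR6 averaged within 0.53 of the array maximum on the heat arrays, and SSA4 read higher; what that limits was not tested.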
